A study of Mus musculus with 2 samples.

Results

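Secreted inhibitors of Wnt signalling were examined in the femoral growth plate of *Tric-b*-knockout embryos at E17.5. There were 10 such genes, *Wif1*, *Sfrp1*, *Sfrp2*, *Sfrp4*, *Sfrp5*, *Frzb*, *Dkk1*, *Dkk2*, *Dkk3* and *Notum*, among 18193 genes named on the array. They were taken by name, with every probe set annotated to one of them and to no other gene, which gave 18 probe sets. One Affymetrix mouse genome array held RNA of the plate section enriched with round chondrocytes, and one held RNA of the section with columnar and hypertrophic chondrocytes, hereafter the round and the columnar zone. For each array, RNA from 3 preparations had been mixed, as the submitters describe the design. Both arrays were from knockout embryos with the strain label C57BL/6J, 129Sv, Tric-b-KO, which lack the TRIC-B cation channel of the endoplasmic reticulum. Wild-type cartilage was not analysed here, so the values compare zones within the knockout and not genotypes. With 1 array per zone, no difference has a replicate check, a standard error or a test.

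Wnt proteins are secreted lipid-modified signals that bind Frizzled receptors and, where the co-receptors LRP5 and LRP6 take part, can stabilise β-catenin. WIF1 and the secreted Frizzled-related proteins, to which FRZB belongs, bind Wnt proteins outside the cell. Dickkopf proteins such as DKK1 act on the co-receptors, and NOTUM is an enzyme that removes the lipid from Wnt. In cartilage, the balance of Wnt signals and their inhibitors is known to bear on the joint surface, on the orientation of columnar cells and on hypertrophy.

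Of the 10 inhibitor genes, 5 had higher signals in the round zone by 2-fold or more, namely *Wif1*, *Sfrp2*, *Dkk3*, *Sfrp1* and *Frzb*. None was 2-fold higher in the columnar zone. *Sfrp4*, *Sfrp5* and *Notum* lay within 2-fold, and *Dkk1* and *Dkk2* were under the detection floor in both arrays and were not compared. The floor of 65.9 was the signal that 40% of all values on the arrays did not exceed. A gene took the value of its brightest probe set (the highest mean log2 signal), and on it all 8 compared genes lay above the floor in both arrays. Among all 12761 compared genes, 6.25% passed 2-fold toward the round zone and 4.28% toward the columnar zone, whereas the share of compared inhibitor genes higher in the round zone was 62.5%. The median log2 difference, columnar minus round, was -1.24 over the 8 inhibitor genes and -0.04 over all compared genes.

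**Figure D1:**
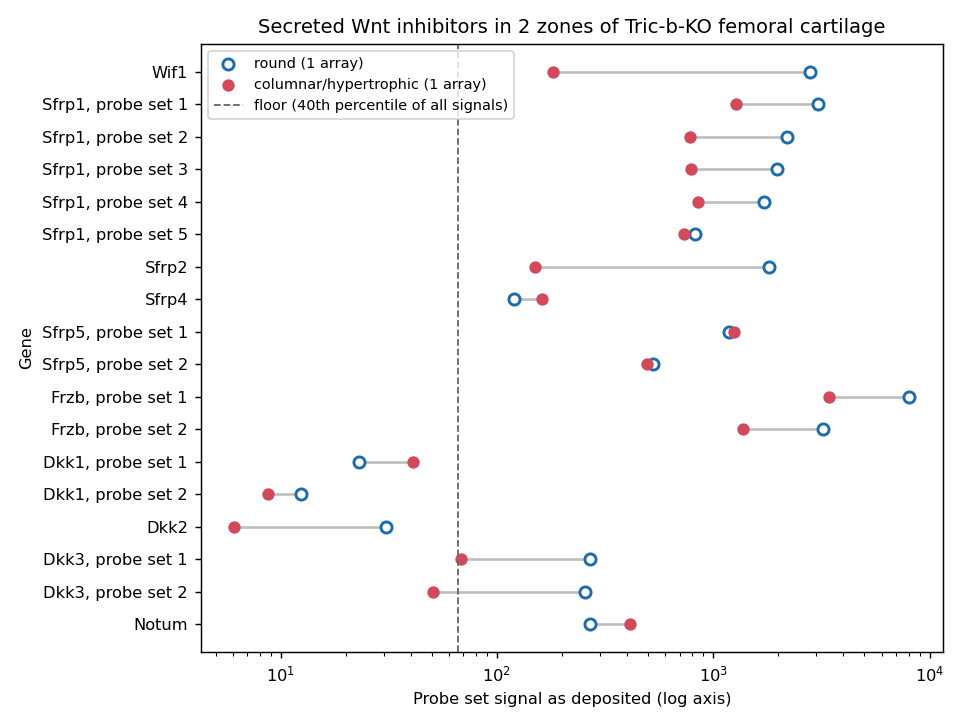
Signal (log axis) of each of the 18 probe sets of the secreted Wnt inhibitor genes in the round zone (open circles) and the columnar zone (filled circles), 1 array per zone, with the floor of 65.9 as a dashed line. Probe sets of a gene are numbered from the brightest, and signals left of the line were not distinguished from each other. *Wif1* and *Sfrp2* have the longest bars among the probe sets with both signals right of the line.

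*Wif1*, whose product binds Wnt through its own WIF domain, had the largest difference of the inhibitor genes. Its single probe set read 2810.5 in the round zone and 181 in the columnar zone. That is a 15.5-fold higher signal in the round zone, or a log2 difference of -3.96. Only 11 of the 12761 compared genes, *Wif1* included, lay as far toward the round zone. No second probe set was there to check the size. In RNA of whole sections, fewer cells expressing a gene and less RNA per cell cannot be told apart, and this holds for each value given here.

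*Sfrp2*, which encodes a secreted Frizzled-related protein, had the second largest difference. The signals of its single probe set were 1805 in the round and 149 in the columnar zone. The signal was thus 12.1-fold higher in the round zone, a log2 difference of -3.60, and 17 of all compared genes lay at least as far on that side.

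*Sfrp1* was measured by 5 probe sets, and all had the higher signal in the round zone. On the brightest the signals were 3034 in the round and 1271 in the columnar zone, a log2 difference of -1.25. The next 3 probe sets gave 2198 and 785, 1979.6 and 789, and 1711 and 847 in the round and the columnar zone, respectively. These 4 probe sets therefore lay between -1.49 and -1.01 on the log2 scale. The fifth, whose name ends in _x_at and whose probes may also bind other transcripts, stood apart at 825 and 729, a log2 difference of -0.18. The SD between the 5 probe sets was 0.52, against a pooled SD of 0.34 over 5446 genes with several probe sets over the floor. This spread holds no variation between embryos or preparations.

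*Frzb*, also known as *Sfrp3* and first described in cartilage, was covered by a pair of probe sets with nearly the same difference. The brighter one had signals of 8072 (round) and 3430.3 (columnar). The other had 3209.7 and 1370.2. The log2 differences were -1.23 on both, so that the round zone was higher by 2.35-fold and 2.34-fold. *Frzb* and *Sfrp1* kept clear signals in the columnar zone, far above the floor on these *Frzb* and the brightest *Sfrp1* probe sets.

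The remaining Frizzled-related genes did not share this difference. *Sfrp5* had signals of 1177 (round) and 1244 (columnar) on its brighter probe set, and 529 and 495 on the other. The log2 differences of 0.08 and -0.10 lay on opposite sides of 0. *Sfrp4* gave 120.2 and 162 on its single probe set, a log2 difference of 0.43 at a signal close to the floor. Within the family of *Sfrp1*, *Sfrp2*, *Sfrp4*, *Sfrp5* and *Frzb*, 3 of 5 genes were therefore past 2-fold toward the round zone.

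**Figure D2:**
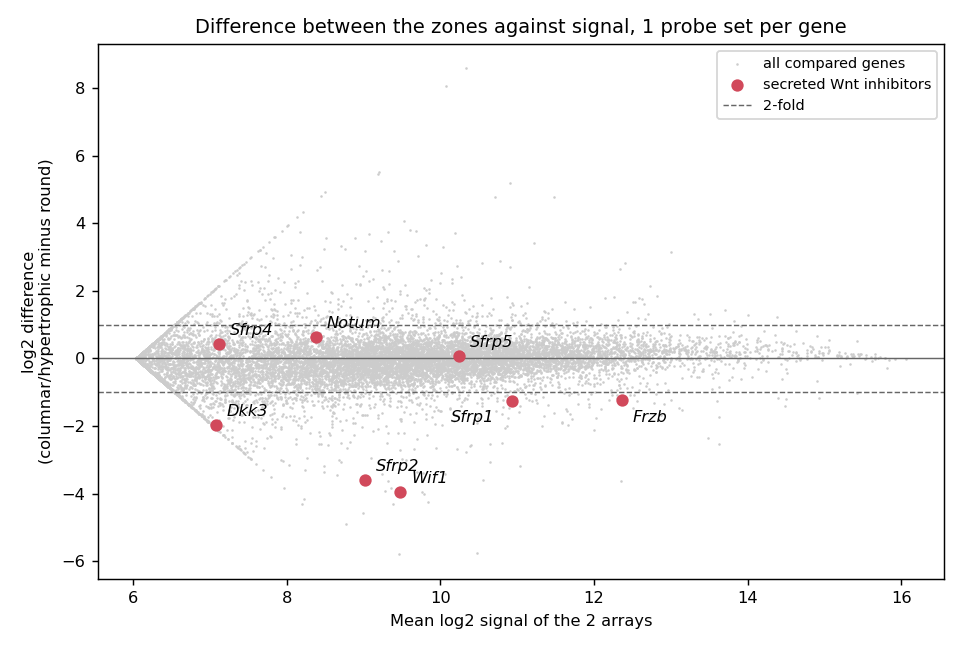
Log2 difference (columnar minus round) of each of 12761 compared genes against its mean log2 signal over both arrays, 1 probe set per gene, with the 8 compared Wnt inhibitor genes as large labelled points and dashed lines at 2-fold. *Wif1* (-3.96) and *Sfrp2* (-3.60) lie at the lower edge of all genes, while *Sfrp5* (0.08), *Sfrp4* (0.43) and *Notum* (0.63) lie inside the 2-fold lines.

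Promoter sequences from RefSeq (GRCm38.p6) were matched to 6 of the 10 genes by symbol, *Wif1*, *Sfrp2*, *Frzb*, *Sfrp5*, *Dkk1* and *Dkk2*, and none is printed for *Sfrp1*, *Sfrp4*, *Dkk3* and *Notum*. The 250 bases before the annotated start are shown for 3 genes with the higher round signal and for *Sfrp5*, which did not differ by 2-fold, so that the base composition of the promoters can be set side by side. Capitals mark the letters of 4 motifs searched on both strands, the TCF/LEF core CTTTGA, the SOX core ACAAAG, the RUNX core TGTGGT and the TATA box TATAAA. The TCF/LEF core and the reverse complement of the SOX core share their first 5 letters but differ in the last.
Wif1, chr10:121033754-121034003, plus strand: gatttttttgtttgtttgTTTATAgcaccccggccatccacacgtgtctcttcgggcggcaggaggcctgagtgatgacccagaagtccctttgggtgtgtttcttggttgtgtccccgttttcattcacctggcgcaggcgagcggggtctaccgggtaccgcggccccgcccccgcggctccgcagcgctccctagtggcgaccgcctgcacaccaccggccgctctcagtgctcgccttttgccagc
Sfrp2, chr3:83766071-83766320, plus strand: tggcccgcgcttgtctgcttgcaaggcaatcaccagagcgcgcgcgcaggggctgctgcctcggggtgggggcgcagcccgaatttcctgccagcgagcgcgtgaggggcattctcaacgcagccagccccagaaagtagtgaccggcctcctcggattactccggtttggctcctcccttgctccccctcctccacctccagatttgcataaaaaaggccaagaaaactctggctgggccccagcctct
Frzb, chr2:80447397-80447646, minus strand: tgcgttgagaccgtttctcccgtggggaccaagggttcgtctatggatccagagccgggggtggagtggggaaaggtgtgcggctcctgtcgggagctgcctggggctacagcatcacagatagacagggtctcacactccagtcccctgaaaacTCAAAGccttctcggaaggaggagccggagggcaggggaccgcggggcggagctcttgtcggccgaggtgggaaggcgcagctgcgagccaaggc
Sfrp5, chr19:42202253-42202502, minus strand: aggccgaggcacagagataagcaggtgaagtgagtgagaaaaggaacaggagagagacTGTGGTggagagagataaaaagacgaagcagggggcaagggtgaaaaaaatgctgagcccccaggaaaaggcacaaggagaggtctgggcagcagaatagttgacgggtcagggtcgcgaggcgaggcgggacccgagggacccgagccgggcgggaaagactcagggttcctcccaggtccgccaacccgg

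The CpG content of the 6 matched promoters varied. *Wif1* held 21 CpG dinucleotides, *Sfrp2* and *Frzb* 16 each, *Sfrp5* 13, *Dkk2* 7 and *Dkk1* 6. Over 32851 promoters of the same length the median was 6 and the interquartile range 2 to 16, so that of these 6 *Wif1* lay above that range. Their GC content was from 55.6% to 64.4%, against a median of 52.4%. The TCF/LEF core, the site type of the factors that work with β-catenin, occurred in *Frzb* at 95 bases before the start and in *Dkk1*, hence in 2 of the 6 matched promoters and in 13.8% of all promoters. The RUNX core lay in *Sfrp5* and *Dkk1*, and in 14.0% of all promoters. The TATA letters were found in *Wif1*, on the minus strand, and in *Dkk1* and *Dkk2*, and in 12.4% of all. *Dkk1* and *Dkk2* held the SOX core, as did 16.5% of all. *Sfrp2* held none of these letters in this window. Such matches describe the sequence and are not binding sites.

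Of the Dickkopf genes, *Dkk3* alone was above the floor. *Dkk3* encodes a divergent member of the family. Its signals were 268 in the round and 68.1 in the columnar zone on one probe set, and 254 and 50.7 on the other. The log2 difference was -1.98 on the first, a 3.94-fold higher round signal, and -1.95 on the second as a bound, since its columnar signal was under the floor. The first lay just above the floor in that array, so a higher floor turns it into a bound. With the 60th percentile as the floor that bound was -0.37, which gives no size.

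*Dkk1*, which encodes an inhibitor acting on LRP5 and LRP6, had signals of 22.9 (round) and 40.8 (columnar) on one probe set and 12.4 and 8.73 on the other. *Dkk2*, encoding a related ligand of the same co-receptors, had 30.8 and 6.11. All lay under the floor, where signals were not ordered. The arrays therefore give no level for these genes in either zone, and do not show that they are absent.

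*Notum*, the Wnt-inactivating enzyme and itself a known target gene of β-catenin, had a signal of 268 (round) and 414 (columnar). Its log2 difference of 0.63, a 1.54-fold higher signal in the columnar zone, was the largest on that side among the inhibitor genes and did not reach 2-fold. It was measured by 1 probe set.

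Ligand genes past 2-fold were all on the columnar side. Of 19 measured ligand genes, 11 were under the floor in both arrays. Of the 8 compared, 4 were past 2-fold toward the columnar zone and 0 toward the round zone. Their median log2 difference was 0.73. On probe sets named with _at and no letter before it, the median was 0.070 over 7 genes. *Wnt5b* had no such probe set and dropped out, while *Wnt5a*, *Wnt4* and *Wnt11* kept the values given below. *Wnt5a*, a ligand known to orient columnar chondrocytes, had signals of 151 (round) and 1919 (columnar) on its brightest probe set, a log2 difference of 3.67. The lowest of its other probe sets was at 1.47, and the mean over probe sets was 2.75, a bound. *Wnt5b*, its close relative, had 172 and 1571 (9.12-fold). *Wnt4* followed with 471 and 2209 (4.69-fold) and *Wnt11* with 229.9 and 607 (2.64-fold). The other compared ligand genes, *Wnt6*, *Wnt7a*, *Wnt7b* and *Wnt10a*, lay within 2-fold.

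Most receptor genes had the lower signal in the columnar zone. Of 15 measured, 14 were compared, of which 5 were at least 2-fold higher in the round zone and 1 in the columnar zone, with a median log2 difference of -0.68. On the round side were *Ror1* (-1.54), *Fzd2* (-1.14), *Fzd6* (-1.08), *Fzd5* (-1.06, a bound) and *Fzd9* (-1.01). Most of these lay close to 2-fold, and the count of 5 was 2 after median centring and 3 after quantile normalization, after lowess centring or when probe sets were averaged. Compared probe sets spanned -1.54 to -0.12 for *Ror1* and -1.08 to -0.22 for *Fzd6*. Their means of -0.83 and -0.57 include values set to the floor in one array and are bounds. *Ror1* encodes a receptor for WNT5A, and the others are Frizzled genes. *Fzd1* was the exception, with signals of 1387 (round) and 3385 (columnar). *Lrp6*, whose product is a target of Dickkopf proteins, had 1911 and 1669, whereas *Lrp5* had 122 in the round zone and was under the floor in the other.

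Other extracellular antagonists were compared in 6 of 9 measured cases, and 3 were at least 2-fold higher in the round zone and 0 in the columnar zone, with a median log2 difference of -0.99. *Igfbp4*, encoding an IGF binding protein that can also inhibit Wnt, had signals of 5873 (round) and 1608 (columnar). All 6 of its probe sets lay between -2.26 and -1.60. *Trabd2b*, the gene of a membrane protease that cleaves Wnt, had 1761 and 599. *Apcdd1*, which encodes a membrane-bound inhibitor, had 906 and 355 on its brightest probe set, whose name ends in _x_at. Its 5 compared probe sets spanned -1.92 to -0.62, with a mean of -1.19. *Sost*, the sclerostin gene, was under the floor in both arrays. Among R-spondins and their receptors, 4 of 9 were compared, and *Rspo3*, encoding an enhancer of Wnt signalling, was 4.95-fold higher in the columnar zone with signals of 127 and 629.97.

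**Figure D3:**
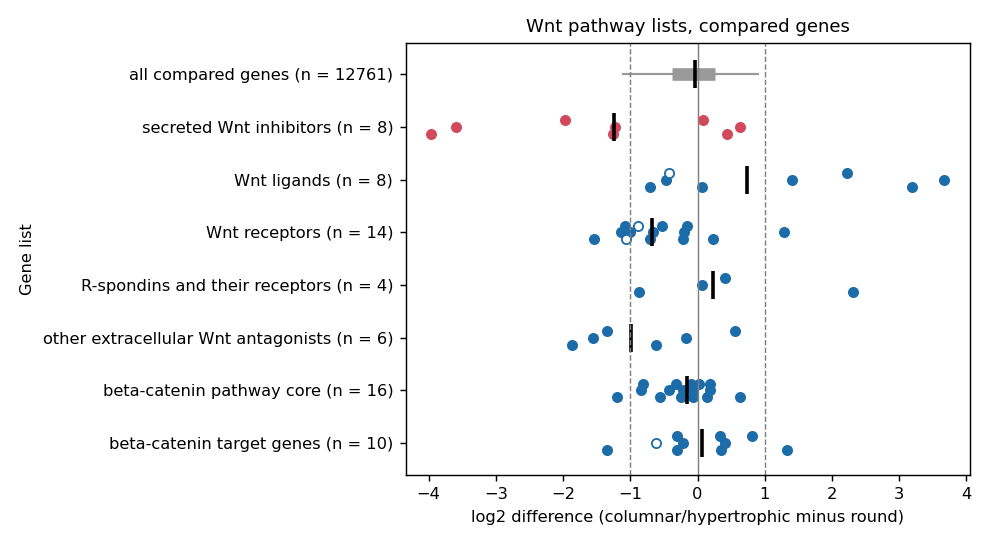
Log2 difference (columnar minus round) of the compared genes of each Wnt pathway list, 1 point per gene, with open points for bounds and black ticks for medians. For all compared genes the grey bar spans the interquartile range and the thin line the 5th to 95th percentiles, and dashed lines mark 2-fold. The inhibitor genes (median -1.24) and the ligand genes (median 0.73) extend to opposite sides.

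Few downstream genes passed 2-fold, and their lists are short, so that 1 gene is a large share. Of all compared genes, 6.25% passed it toward the round and 4.28% toward the columnar zone. Of 16 compared genes of the β-catenin pathway core, 1 was at least 2-fold higher in the round zone, *Bcl9* (-1.19, and -0.99 as the mean over its probe sets), which encodes a coactivator of β-catenin, and 0 in the columnar zone. *Ctnnb1*, the β-catenin gene, had signals of 23189 and 26363. The median was -0.16. Of 10 compared target genes, 5 were lower and 5 higher in the columnar zone, with a median of 0.06. *Apcdd1*, which is also on the antagonist list, was at -1.35 and *Myc* at 1.32, and no other compared target gene reached 2-fold as deposited. After quantile normalization or lowess centring, 1 of 10 target genes was past 2-fold toward the round and 2 toward the columnar zone. With the 20th percentile floor these were 4 and 1 of 14, beside 1519 and 1053 of all 16304 compared genes. *Axin2*, the widely used feedback target, had signals of 174 (round) and 305 (columnar), a log2 difference of 0.82. Messenger RNA levels of these genes do not measure β-catenin protein.

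Markers of the labelled zones differed between the specimens, and markers of other tissues moved with them. Of 7 cartilage genes, all were above the floor and within 2-fold. Columnar and prehypertrophic markers were all past 2-fold toward the columnar zone, 6 of 6. Of the hypertrophic markers, 3 of 4 compared genes did the same, and *Mmp13* was under the floor in both. Of 3 round or resting markers, 2 passed 2-fold toward the round zone. On the round side, 5 of 5 joint surface genes passed 2-fold, with summed signals of 8101 (round) and 642 (columnar). Of 11 compared genes of perichondrium, tendon and fibroblasts, 7 were so, with summed signals of 85189 and 33719.8. The lowest log2 differences on these lists, -5.80 for *Prg4* and -4.58 for *Col14a1*, are past those of *Wif1* and *Sfrp2*. *Postn* (-3.41), *Col3a1* (-2.54) and *Dcn* (-2.35) followed *Col14a1* on the second list. Of its tendon markers, *Tnmd* had signals of 214 (round) and 78.0 (columnar), and *Scx* had 79.2 in the round zone and was under the floor in the other. *Lum* was at 0.05, and *Thy1* was under the floor in both. The part of joint surface or perichondrial tissue in the higher round signals of *Wif1*, *Sfrp2*, *Dkk3*, *Sfrp1* and *Frzb* was not tested. Osteoblast markers were mixed, with 3 compared. *Ifitm5* (1.28) was past 2-fold toward the columnar zone and *Col1a1* (-2.21), also on the perichondrial list, toward the round zone, while *Dmp1* was at 0.95, a bound. Markers of erythroid cells, myeloid cells and osteoclasts, and endothelium had 0 genes past 2-fold among the 1, 3 and 4 compared. Skeletal muscle markers had 2 of 3 compared past 2-fold toward the columnar zone, with summed signals of 193 and 829.

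**Figure D4:**
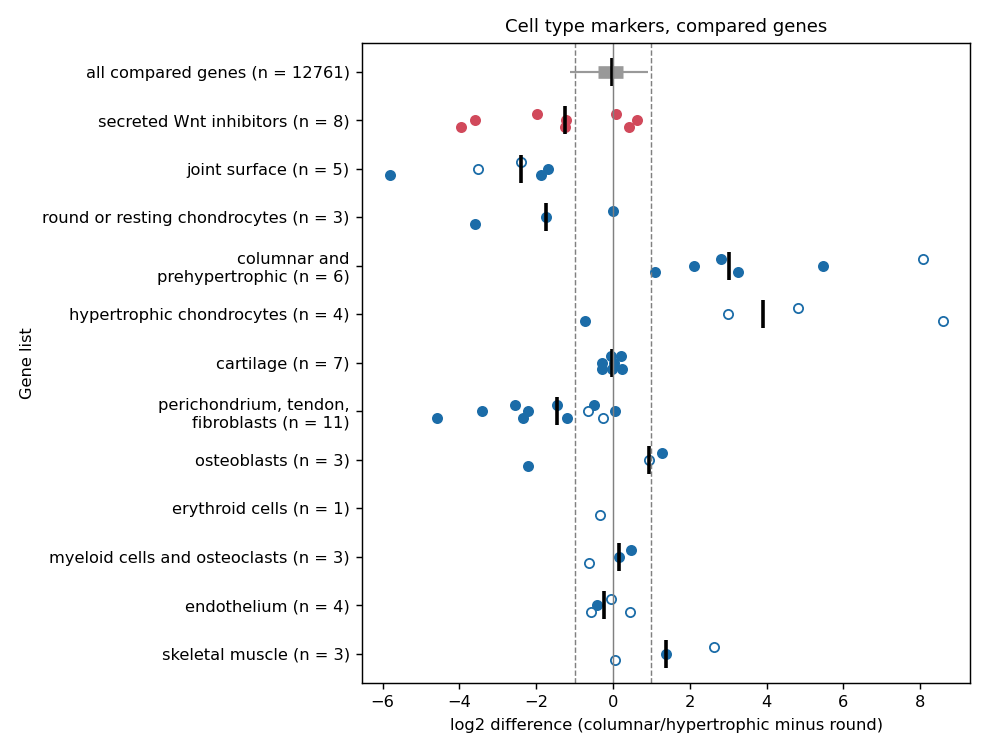
Log2 difference (columnar minus round) of the compared genes of each cell type marker list beside the secreted Wnt inhibitor genes, drawn as points with open points for bounds and black ticks for medians of lists with at least 3 genes. The grey bar and thin line show all compared genes, as the interquartile range and the 5th to 95th percentiles. The joint surface genes (median -2.39) and the perichondrium, tendon and fibroblast genes (median -1.46) lie on the same side as the inhibitor genes, and the cartilage genes (median -0.02) near 0.

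The direction of all 5 genes higher in the round zone was the same in every alternative processing run for them, and 4 of the 5 also stayed past 2-fold in each. Part of this is by construction. A lower floor or none left these values unchanged, and no floor can turn a sign. Averaging could not change *Wif1* and *Sfrp2* with 1 probe set each. Keeping only probe sets named with _at alone left *Sfrp1*, *Sfrp2*, *Frzb* and *Dkk3* on the same probe set, and *Wif1* had none there. Median centring shifted every gene by the same amount. All runs used the same 2 arrays. For *Dkk3*, the 60th percentile floor left a bound of less than 2-fold. At that floor the values of *Wif1* (-3.76) and *Sfrp2* (-3.13) were bounds too. *Wif1* ranged from -3.96 to -3.76, *Sfrp2* from -3.60 to -3.13, *Sfrp1* from -1.29 to -1.05 and *Frzb* from -1.37 to -1.14 on the log2 scale. *Sfrp4* and *Notum* remained on the other side, from 0.43 to 0.68 and from 0.63 to 0.80. *Sfrp5* was between -0.01 and 0.17.

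**Figure D5:**
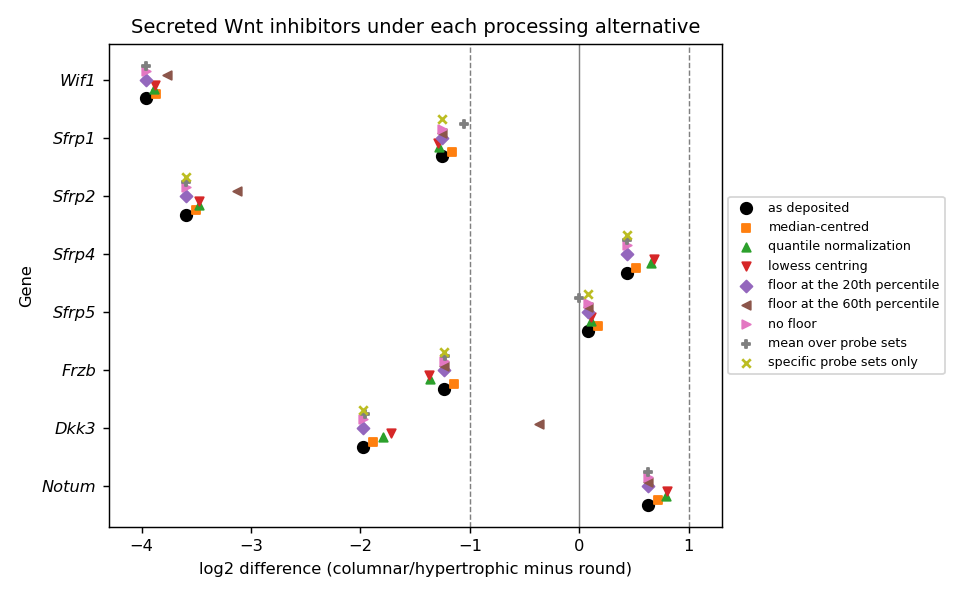
Log2 difference (columnar minus round) of the 8 compared Wnt inhibitor genes as deposited (black) and under each alternative scaling, floor or choice of probe set (coloured marks), with dashed lines at 2-fold. *Dkk3* is at -1.98 as deposited and has a bound of -0.37 under the 60th percentile floor, and the marks of *Wif1*, *Sfrp1*, *Sfrp2* and *Frzb* stay left of the 2-fold line.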

How the data were processed

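Expression was measured in knockout femoral cartilage on Affymetrix mouse genome arrays, 1 per zone, and samples were grouped by their titles. The deposited values were linear intensities, 1 per probe set, and were not log values. MAS5 is given, without a version, in the processing notes of the submitters, while the methods name robust multiarray analysis for heatmaps. The medians were 121 (round) and 104 (columnar), means trimmed by 2% at each end were 497 and 496, and 61.3% and 58.7% of 45037 probe sets lay above the floor. The number of arrays sets the precision.

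Signals were used as deposited. The 34945 probe sets annotated to 1 gene symbol were named, with symbols brought up to date through Entrez identifiers in RefSeq, which held all 10 inhibitor genes. Probe sets not above the floor on either array were left out of comparisons, and those not above it on one array were given the floor there, so that their difference is a bound. No test was run. The size rule was 2-fold. The named genes were all inhibitor genes, and of each pathway list up to 6 genes past 2-fold with the largest differences, and of each marker list at most 3. *Axin2*, *Ctnnb1*, *Dcn*, *Lrp5*, *Lrp6*, *Lum*, *Mmp13*, *Scx*, *Sost*, *Thy1*, *Tnmd* and the ligand genes within 2-fold were named after their values were seen. The genes and lists were chosen with earlier results of these data known. Alternatives were median centring, a lowess curve (fraction 0.3), quantile normalization, and a lower (20th percentile) or higher (60th) floor or no floor. Others were averaging a gene's probe sets, keeping only probe sets named with _at alone, and a 3-fold rule. The _at choice left out every name with a letter before _at, such as _a_at and _x_at. The steps were tested on simulated data with changes well past 2-fold in bright probe sets only. This did not test differences near 2-fold or signals near the floor. Protein sequences were not analysed here. Calculations were made in Python 3.11.15 with pandas 2.3.3, numpy 2.4.6 and, for lowess, statsmodels 0.14.6, and plots with matplotlib 3.10.9.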

Additional observations from a re-analysis of the deposited data

How the results depend on the processing

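No paired analysis was possible because a single array was made per zone. A value was taken as moved when it changed by at least the pooled SD between probe sets of one gene, 0.34, and a count when it changed by over 1.5 times. No value past 2-fold turned its sign, and of single pathway genes 117 values changed by less than 0.34 and 7 by more. These were *Ror1* (-0.70), *Rspo3* (1.61) and *Wnt5a* (3.21), all bounds, at the 60th percentile floor. As means over probe sets they were *Ror1* (-0.83), *Fzd6* (-0.57) and *Wnt5a* (2.75), all bounds, and *Wnt5b* (3.59). Smaller changes took *Fzd5* (-0.97, -0.94 and -0.82, bounds) and *Fzd6* (-0.99, -0.94 and -0.93) under 2-fold after median centring, quantile normalization and lowess centring. They did the same for *Fzd9* (-0.92) after median centring and *Bcl9* (-0.99) as a mean over probe sets. Apart from what each floor or rule does by construction, the cause was not tested.

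A floor at the 60th percentile gave log2 differences, as bounds, of -0.37 for *Dkk3* and -3.13 for *Sfrp2*, and *Sfrp4* was not compared. Under the 20th percentile floor the median of the inhibitor genes was -0.84, as *Dkk1* (0.83) and *Dkk2* (-0.44, a bound) entered it. With no floor *Dkk2* was at -2.33. A 3-fold rule kept 3 of the 8 compared inhibitor genes on the round side, beside 271 of all 12761 compared genes. The ligand median was 2.23 with the 60th percentile floor, 0.37 with the 20th or none, and 0.070 on specific probe sets. The R-spondin list gave -0.38 with the lower floor or none, against 0.24 as deposited. The median of other antagonists was -1.35 under the 60th percentile floor and -0.62 with none. On probe sets named with _at alone it was -0.62 too, where *Igfbp4* dropped out and *Apcdd1* was at -1.29.

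Genes past 2-fold toward the round zone numbered 798 as deposited, 1519 with the 20th percentile floor, 407 with the 60th, 2524 with none, and 271 by the 3-fold rule. In the columnar zone these were 546, 1053, 347, 1940 and 214. For probe sets the alternatives gave 3936, 801, 7128 and 572, and 2369, 601, 5074 and 385. Of the genes past 2-fold, 40.6% were higher in the columnar zone as deposited and 52.8% after lowess centring. *Wif1* and *Notum*, each with 1 probe set whose name ends in _a_at, had no value on probe sets named with _at alone. *Wnt5b* and *Igfbp4* had none there either.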
